A study of Mus musculus with 2 samples.

Results

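The genes described here encode the enzymes that methylate lysine 9 of histone H3 (H3K9), the cofactors that bring those enzymes to chromatin, and the HP1 proteins that bind the methylated histone. The set of 10 genes was fixed by name, as Ehmt1, Ehmt2, Wiz, Suv39h1, Suv39h2, Setdb1, Trim28, Cbx1, Cbx3 and Cbx5, with earlier results of these data known. Of the 10, 9 had a row among the 16579 genes measured in the series, and Cbx3 was not analysed here. They were compared between mouse embryonic fibroblasts (MEFs) with both copies of Lsh (Lsh+/+, the wild type) and MEFs without it (Lsh-/-, the knockout). Lsh, the product of Hells, is a chromatin remodelling protein of the SNF2 family that is needed for normal DNA methylation. Both cell lines were grown in the same serum-containing medium and received no treatment, and total RNA of each was hybridised to 1 Affymetrix whole-genome mouse expression array. The labels do not give the age of the embryos, the strain, or the number of embryos behind each line. The study set out to relate Lsh-dependent cytosine methylation outside repeats to gene expression.

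Methylated H3K9 is the main histone mark of silent heterochromatin in mammals. G9a and GLP place the lower methylation states at genes, whereas the Suv39h enzymes and Setdb1 place the trimethyl mark at satellite repeats and at endogenous retroviruses. HP1 proteins read the mark through a chromodomain, and in mouse cells the H3K9 and DNA methylation pathways act on many of the same silent regions.

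As deposited, no H3K9 or HP1 gene differed 2-fold between the arrays, and the genes lay on both sides of 0. Those of G9a, GLP and their cofactor Wiz had differences below 0, at -0.92 on the log2 scale for Wiz, -0.59 for G9a (Ehmt2) and -0.19 for GLP (Ehmt1). The other 6 measured genes lay above 0, from 0.08 for Suv39h2 to 0.64 for Suv39h1. These differences are knockout minus wild type in deposited log2 values from 1 array a genotype, so they have no replicate error and no test. Every direction is relative to the other genes on the arrays, and with the knockout array scaled to its hybridisation controls all of these genes except Suv39h1 lay below 0, and Wiz and Ehmt2 were then past 2-fold lower.

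Hells, the targeted gene, read 6.68 in Lsh+/+ and 5.22 in Lsh-/- cells, a difference of -1.46. Where its probes lie relative to the deleted part was not given in the sources used here, so this row may not check the labels. Genes were counted only if their brighter value reached the median of its array, which was 3.86 in wild type cells and 3.88 in knockout cells. This limit marks dim genes and is not a detection limit. The 9168 genes that passed it are called kept genes. The differences of the kept genes had a median of 0.01 and quartiles of -0.34 and 0.35. Of 14 fibroblast markers 13 were kept, with values up to 12.5, and Thy1 was below the limit on both arrays. The summed linear signal of all 14 was 23155 in wild type cells and 16630 in knockout cells. Of the 13 kept markers 6 were past 2-fold lower in the knockout, beside 6.06% of all kept genes, and 0 were past 2-fold higher, beside 4.65%. By log2 difference, the 6 were the matrix genes Col1a2 (-4.43), Postn (-3.74) and Lum (-3.63), S100a4 (-3.99), and the receptors Pdgfra (-1.19) and Pdgfrb (-1.15), where Postn and Lum were dim in the knockout. The other 7 kept markers were within 2-fold, among them Col3a1 (0.78), Vim (-0.09) and Fn1 (-0.03). Col3a1 was the 1 kept fibroblast marker above 0, and 12 lay below. Of 10 epithelial markers 4 were kept, and the summed linear signal of all 10 was 282 in the wild type against 1816 in the knockout. Krt18 and Krt19 were past 2-fold higher there (log2 differences of 6.15 and 3.05), where Krt18 was dim in the wild type, at 2.77. The other kept epithelial markers, Krt8 and Krt14, were within 2-fold (log2 differences of 0.24 and 0.46). Cdh1 and Epcam lay below the limit on both arrays. Blood cell markers had 1 of 5 measured genes kept and neural markers 1 of 6. Endothelial markers had 2 of 6 kept, both past 2-fold and in opposite directions, Kdr at 1.82 and Egfl7 at -1.73. The part of these marker differences in the results below was not tested. In bulk RNA, fewer cells of a type and less RNA per cell cannot be told apart.

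Of the 9 measured H3K9 and HP1 genes, 7 were kept, while Suv39h2 and Cbx1 were below the limit on both arrays. Among the 7 kept genes, 0 were higher by 2-fold or more and 0 were lower by as much, where 4.65% and 6.06% of all kept genes were. At 1.5-fold, 1 of the 7 was higher (Suv39h1) and 2 were lower (Wiz and Ehmt2), beside 13.7% and 13.8% of all kept genes. By sign, 4 of the 7 lay above 0 and 3 below, against 50.5% and 48.2% of all kept genes. The median of the 7 was 0.11. With the pseudocount of 32 none of the 7 reached 1.5-fold in either direction, and with the scaling to reference genes (-0.47) or with chromosome medians subtracted (-0.52) Ehmt2 did not. With the scaling to hybridisation controls 0 were higher and 3 lower by 1.5-fold. Over 7 genes these counts are not read as a result about the set. The 9 genes were covered by 20 transcript rows, and in the 6 genes with several rows every row held the same values, so each gene rests on 1 measurement. None of the 9 shared its values with another gene. In the gene table Setdb1 overlapped Cers2, Suv39h2 overlapped Dclre1c, Trim28 overlapped Gm31649 and Cbx1 overlapped the pseudogene Gm11517. Probe positions were not given, so signal of these overlapping genes cannot be told apart from that of the named gene.

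**Figure D1:**
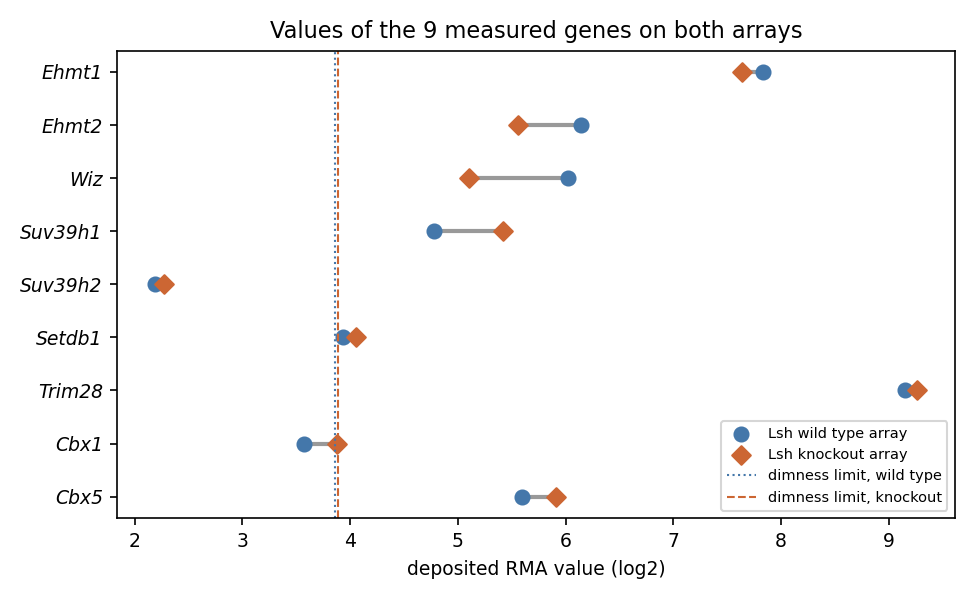
Deposited log2 values (horizontal axis) of the 9 measured genes in wild type cells (circles) and knockout cells (diamonds), with the dimness limit of each array as a vertical line. The knockout diamond lies to the left for Ehmt1, Ehmt2 and Wiz and to the right for the other 6 genes, and the Suv39h2 values of 2.19 and 2.27 lie far below the limits.

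Ehmt2 encodes G9a and Ehmt1 encodes GLP, close relatives that work as a heterodimer and place mono- and dimethylation on H3K9. Wiz encodes a zinc finger protein that binds this heterodimer and helps to hold it on chromatin. Wiz (NM_011717, chromosome 17) read 6.02 in wild type cells and 5.11 in knockout cells, the largest difference of the set in either direction. Its difference of -0.92, or 1.89-fold lower, stood at percentile 7.12 of the kept genes, 8516 of 9168 of which had an equal or higher difference. Ehmt2 (NM_145830, chromosome 17) read 6.15 in wild type cells and 5.55 in knockout cells, which is 1.51-fold lower and at percentile 13.6. Ehmt1 (NM_001012518, chromosome 2) read 7.84 in wild type cells and 7.64 in knockout cells, a difference of -0.19 at percentile 33.8, inside the quartiles of all kept genes. The differences of the catalytic partners thus lay 0.40 apart, and that of Wiz lay 0.33 below that of Ehmt2 and 0.72 below that of Ehmt1. Such gaps between genes do not move when an array is scaled by a constant.

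The upstream regions of these 3 genes are shown because Lsh acts on CpG methylation, and CpG sites lie in each of them. Sequences are the 250 bases before the outermost annotated start, from RefSeq on GRCm38.p6, read 5′ to 3′ on the gene's strand. All 10 genes matched an entry by symbol. The regions are chr17:32389407-32389656 on the minus strand for Wiz, chr17:34898224-34898473 on the plus strand for Ehmt2 and chr2:24919610-24919859 on the minus strand for Ehmt1. Capitals mark matches to GCGCANGCG, a core of the consensus for the factor NRF1, whose binding in mouse stem cells is blocked by DNA methylation.
Wiz: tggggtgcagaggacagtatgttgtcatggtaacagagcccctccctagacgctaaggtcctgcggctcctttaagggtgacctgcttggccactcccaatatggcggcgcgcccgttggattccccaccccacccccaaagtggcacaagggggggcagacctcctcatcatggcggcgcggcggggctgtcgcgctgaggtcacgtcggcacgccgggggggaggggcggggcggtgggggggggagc
Ehmt2: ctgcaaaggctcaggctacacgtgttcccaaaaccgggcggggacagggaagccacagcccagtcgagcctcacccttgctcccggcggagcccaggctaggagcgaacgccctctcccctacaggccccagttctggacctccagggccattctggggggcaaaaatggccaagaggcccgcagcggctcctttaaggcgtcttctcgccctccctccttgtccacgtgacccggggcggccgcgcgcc
Ehmt1: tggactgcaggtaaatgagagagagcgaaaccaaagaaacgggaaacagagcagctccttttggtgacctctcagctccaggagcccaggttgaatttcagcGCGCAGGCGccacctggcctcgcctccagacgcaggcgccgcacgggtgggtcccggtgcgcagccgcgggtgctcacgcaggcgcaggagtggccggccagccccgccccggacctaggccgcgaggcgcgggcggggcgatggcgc
The Wiz and Ehmt2 regions held 18 CpG sites each and the Ehmt1 region 26, and the 10 genes ranged from 11 to 29 with a median of 18. The upstream regions of 7379 kept genes with an entry had a median of 17 CpG sites and quartiles of 11 and 23. Their methylation was not measured by these arrays.

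Suv39h1 and Suv39h2 encode enzymes with overlapping roles that trimethylate H3K9 at pericentric satellite repeats. Suv39h1 (NM_011514, chromosome X) read 4.78 in the wild type against 5.42 in the knockout. Its difference of 0.64, or 1.56-fold higher, was the highest of the set and stood at percentile 88.2, and 1081 kept genes had an equal or higher one. Suv39h2 (NM_022724, chromosome 2), known for its high expression in testis, read 2.19 in wild type cells and 2.27 in knockout cells, below the limit on both arrays, so its difference of 0.08 is between dim values. As deposited, the change of Suv39h1 exceeded that of Ehmt2 by 1.23 and that of Wiz by 1.56. Relative to Wiz the deposited Suv39h1 signal was thus 2.95-fold higher in the knockout. Suv39h1 and Wiz are the highest and lowest of the set, so this gap is the range of the set and is not read as a result. With the pseudocount of 32 the gap was narrower, with Suv39h1 at 0.33 and Wiz at -0.55.

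Setdb1 encodes an H3K9-trimethylating enzyme that Trim28 brings to retroviral sequences through KRAB zinc finger proteins. Setdb1 (NM_001163641, chromosome 3) read 3.93 in wild type cells and 4.06 in knockout cells, close to the dimness limit, with a difference of 0.13. Trim28 (NM_011588, chromosome 7), the corepressor also called KAP1, read 9.15 in wild type cells and 9.26 in knockout cells, with a difference of 0.11. As deposited, both changes were small beside the quartiles of all kept genes and they lay within 0.02 of each other, at percentiles 59.1 and 57.8. With quantile normalization Trim28 stood at 0.27 and Setdb1 at 0.08, and with the loess trend removed at 0.18 and 0.06.

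Cbx5, Cbx1 and Cbx3 encode HP1 alpha, beta and gamma. Cbx5 (NM_001076789, chromosome 15) read 5.60 in wild type cells and 5.91 in knockout cells, a difference of 0.31 at percentile 72.6. Cbx1 (NM_007622, chromosome 11) read 3.57 and 3.88, and its knockout value lay just under the limit of that array, so that it was left out of the counts by a narrow margin. Its difference of 0.31 was within 0.01 of that of Cbx5. Neither HP1 gene reached 1.5-fold.

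The upstream regions of Suv39h1 and Cbx5 are shown for comparison with those of the G9a group. They lie at chrX:8074761-8075010 and chr15:103239853-103240102, both on the minus strand of GRCm38.p6, and capitals again mark GCGCANGCG.
Suv39h1: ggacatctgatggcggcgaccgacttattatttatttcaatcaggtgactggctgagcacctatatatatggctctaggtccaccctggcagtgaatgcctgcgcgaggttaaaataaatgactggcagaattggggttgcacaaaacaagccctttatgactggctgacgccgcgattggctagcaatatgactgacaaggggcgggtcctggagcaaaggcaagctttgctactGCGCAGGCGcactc
Cbx5: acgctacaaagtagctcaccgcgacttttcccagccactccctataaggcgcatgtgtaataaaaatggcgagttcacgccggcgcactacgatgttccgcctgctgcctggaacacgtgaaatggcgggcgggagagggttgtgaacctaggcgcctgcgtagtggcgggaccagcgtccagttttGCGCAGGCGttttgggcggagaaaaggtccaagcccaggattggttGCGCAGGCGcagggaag
The Suv39h1 region held 11 CpG sites, the fewest of the 10, and the Cbx5 region 22. The NRF1 consensus, searched on both strands after the sequences had been seen, occurred in 4 of the 10 upstream regions, those of Suv39h1, Ehmt1 and Suv39h2 and, at 2 places, that of Cbx5. It occurred in 12.2% of the regions of kept genes and in 5.33% of all 27025 regions. The genes with a match included Ehmt1, which was below 0, as well as Suv39h1 and Cbx5. The E2F consensus forms TTTCCCGC, TTTGGCGC, TTTCGCGC and TTTGGCGG, searched on both strands and not overlapping an NRF1 match in these 10 regions, were found in 1 of the 10 regions, that of Cbx3, and in 3.96% of the regions of kept genes. A match describes the letters only and is not evidence of binding.

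The scaling of the arrays decided which side of 0 most of these genes took. The hybridisation controls are probe sets for bacterial and phage transcripts (bioB, bioC, bioD and cre) that are spiked into each hybridisation. All 18 of them read higher in the knockout, with a median difference of 0.49 and a range from 0.18 to 0.85. Scaling the knockout array to them shifted the median over all kept genes by -0.51. Wiz then stood at -1.41 and Ehmt2 at -1.08, so that 2 of the 7 kept genes fell past 2-fold, beside 17.0% of all kept genes, and 0 were 2-fold higher, beside 1.66%. Suv39h1 stayed above 0 at 0.15, while Cbx5 went to -0.18, Setdb1 to -0.37 and Trim28 to -0.38. Scaling to 9 kept reference genes, whose median difference was -0.12, shifted that median by 0.12 in the other direction, and Wiz then stood at -0.79 and Suv39h1 at 0.77. Over 10 alternatives Wiz ranged from -1.41 to -0.55, Ehmt2 from -1.08 to -0.38 and Ehmt1 from -0.69 to -0.07, all below 0. Suv39h1 ranged from 0.15 to 0.77, always above 0. The other 5 measured genes fell below 0 only with the scaling to hybridisation controls. Row means, the changed dimness limits and counting identical values once could not alter these differences, so those alternatives do not test the signs. The pseudocount narrows a difference but cannot change its sign. Scaling to the hybridisation controls lowers every difference, so it tests only the signs of genes above 0. Scaling to the reference genes raises every difference, so it tests only the signs of genes below 0.

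**Figure D2:**
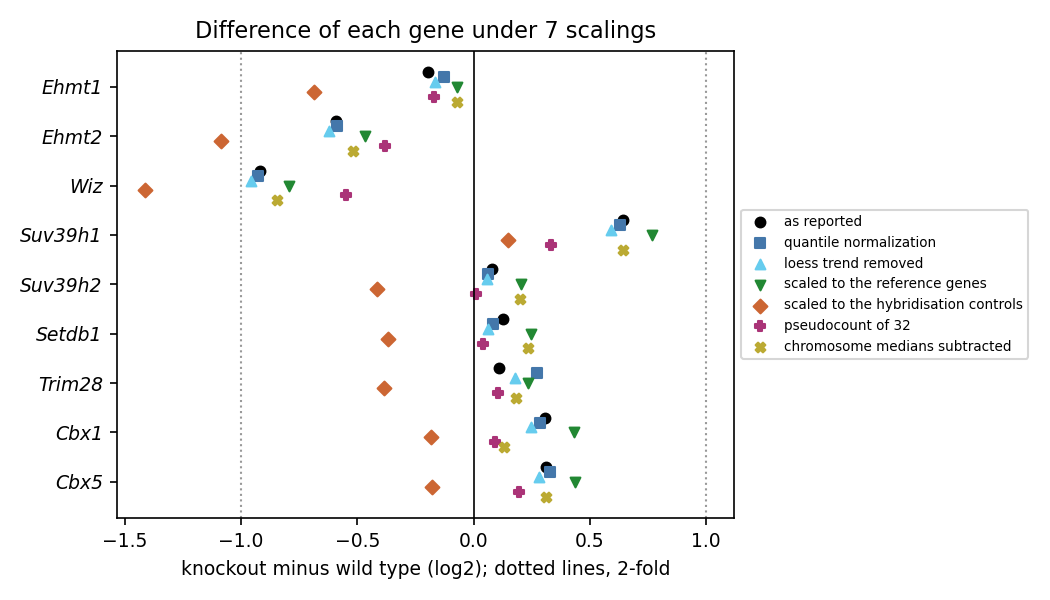
Knockout minus wild type (log2, horizontal axis) of each measured gene as deposited and under 6 other treatments of the values, with 2-fold as dotted lines. Wiz, Ehmt2 and Ehmt1 are left of 0 and Suv39h1 is right of 0 throughout, while scaling to the hybridisation controls takes the other 5 genes across 0.

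Wiz and Ehmt2 both lie on chromosome 17, and their chromosomal neighbours were set beside them by gene order. The 470 kept genes of chromosome 17 had a median difference of -0.07, and 50 kept genes between Wiz and Ehmt2 had a median of -0.03, with 5 past 2-fold in each direction. Of the 20 kept genes nearest to Wiz, 10 lay above 0 and 10 below, with differences from -1.09 to 2.00. Only 1 had a lower difference than Wiz, the adjacent gene Cyp4f16 at -1.09. Of the 20 nearest to Ehmt2, 8 lay above 0 and 12 below, with a median of -0.17, and 5 were lower than Ehmt2. The complement genes C4a and C4b among them held identical values, so these are 19 measurements, with a median of -0.12, 11 of them below 0 and 4 lower than Ehmt2. Suv39h1 lay among neighbours on chromosome X with a median of 0.22, of which 14 of 20 were above 0 and 6 had a difference at least as high. The 252 kept genes of chromosome X had a median of 0.00. After subtraction of each chromosome's median, Wiz was at -0.85, Ehmt2 at -0.52 and Suv39h1 at 0.64.

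**Figure D3:**
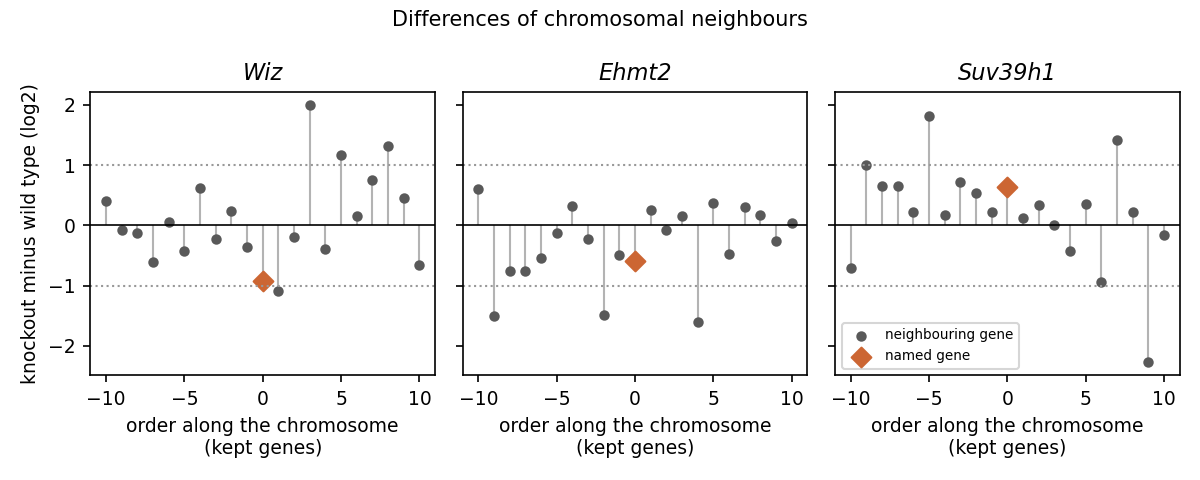
Knockout minus wild type (log2, vertical axis) of the 10 kept genes on each side of Wiz, Ehmt2 and Suv39h1 in chromosomal order, with 2-fold as dotted lines. Of the 20 neighbours of Wiz 10 lie above 0 and 10 below. By contrast, 12 of 20 neighbours of Ehmt2 (11 of 19 measurements) lie below 0 and 14 of 20 neighbours of Suv39h1 above it.

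Partners of the H3K9 machinery lay on both sides of 0, with more of them above it as deposited. Single values given for a gene from here on, in parentheses or after "at", are knockout minus wild type differences on the log2 scale. Of 33 listed genes 30 were measured and 28 kept, with 22 above 0, 5 below and Zfp57 at the same value on both arrays, where 50.5% of all kept genes lay above 0 and 48.2% below. None of the 28 was past 2-fold. At 1.5-fold 8 were higher and 1 was lower, beside 13.7% and 13.8% of all kept genes. The list median was 0.44, beside 0.01 over all kept genes, and -0.058 with the knockout scaled to the hybridisation controls. The member farthest above 0 was Zfp462, a zinc finger protein that recruits G9a and GLP in mouse stem cells, which read 5.17 in wild type cells and 6.07 in knockout cells (0.90). The member farthest below 0 was Atf7ip, the cofactor that stabilises Setdb1, which read 5.88 and 5.0 (-0.88). Zfp462 and Wiz, both zinc finger partners of the same enzymes, thus differed in opposite directions as deposited, and Zfp644, a further such partner known from human cells, was at 0.45.

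The HUSH complex silences retroelements together with Setdb1. Its reader subunit Mphosph8 went from 5.28 to 5.66 (0.38), its scaffold Tasor from 4.78 to 5.41 (0.63) and the third subunit Pphln1 from 4.09 to 3.81 (-0.28). Morc2a, an ATPase that works with HUSH, went from 6.62 to 7.26 (0.63). Mphosph8, Tasor and Morc2a were thus above 0 and Pphln1 below it. Of the KRAB zinc finger genes that recruit Trim28, Zfp445 was at 0.52 and Zfp809, which binds retroviral DNA, at 0.48, and Zfp57, a guardian of imprints, read 4.85 on both arrays.

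HP1 and the H3K9 mark have further partners in DNA and histone metabolism. Uhrf1, which reads both methylated H3K9 and hemimethylated DNA after replication, went from 4.64 to 5.42 (0.78). The remodeller Smarcad1, which keeps heterochromatin in place through replication, was at 0.74, and the deacetylase Hdac2 at 0.65. Among proteins that bind HP1, Pogz was at 0.69, Mis12 at 0.78, Incenp at 0.46, Lbr at 0.30, Adnp at 0.23 and its partner Chd4 at 0.42. Atrx and Daxx, which place histone H3.3 at heterochromatin, were at -0.04 and 0.06.

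H3K9 demethylases also lay on both sides of 0. Of 11 listed genes 10 were measured and 8 kept, 5 of them above 0, 2 below and Kdm4a at 0.00. None was past 2-fold, and at 1.5-fold 0 were higher and 1 was lower, beside 13.7% and 13.8% of all kept genes. The median was 0.18 (-0.32 with the scaling to hybridisation controls). Kdm4c, which removes H3K9 trimethylation, was the lowest, at 4.85 in wild type cells and 4.23 in knockout cells (-0.61). Kdm7a, a dimethyl demethylase, was the highest, at 5.27 and 5.62 (0.35). Kdm3a, Kdm3b and Jmjd1c, relatives within the KDM3 family, were at 0.27, 0.34 and 0.33. The other H3K9 methyltransferase genes, Prdm2, Mecom and Prdm16, were dim on both arrays, with no value above 2.73, and Setdb2 was not analysed here.

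The H4K20 methyltransferases Kmt5b and Kmt5c are brought to heterochromatin by HP1, and H3.3 is the histone variant deposited there outside replication. Of 8 listed genes of these pathways 6 were kept, with a median of 0.15 (-0.34 with the scaling to hybridisation controls) and none past 2-fold. The H3.3 gene H3f3b came nearest, from 9.64 in the wild type to 10.6 in the knockout, just under 2-fold. Kmt5b was at 0.70 and Kmt5c at 0.30. Only the row NM_001167885 of Kmt5b was that high; the other values among its rows, 0.00 and 0.07, came from rows below the limit. Ubn1, a subunit of the HIRA complex that deposits H3.3, was the lowest at -0.57.

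Suv39h1, Uhrf1 and the chromatin assembly gene Chaf1b are expressed mainly in dividing cells. They were at 0.64, 0.78 and 0.11. Genes of DNA replication and the cell cycle were set beside them. Of 27 kept replication and cell cycle genes, 4 were past 2-fold upward and 0 downward, beside 4.65% and 6.06% of all kept genes. Of the 27, 23 lay above 0, beside 50.5% of all kept genes, and their median was 0.52 (0.030 with the scaling to hybridisation controls). The 4 were the replication licensing factor Cdc6 at 1.23, the helicase subunit Mcm6 at 1.20, the kinesin Kif20a at 1.07 and the nucleotide reductase subunit Rrm2 at 1.04. The lowest was the mitotic kinase Aurka at -0.31. Whether the values of Suv39h1 and the partner genes moved with the share of dividing cells was not tested. As a measure of RNA integrity, the log2 excess of the 3′ over the 5′ control probe set was taken. For Actb it was 2.56 in wild type and 3.15 in knockout cells, for Gapdh 2.14 and 2.84, and for 18S 2.11 and 1.52. The excess thus differed between knockout and wild type by 0.60 for Actb, 0.70 for Gapdh and -0.59 for 18S ribosomal RNA. The part of this excess, and of its difference between the arrays, in the values of the H3K9 genes was not tested.

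**Figure D4:**
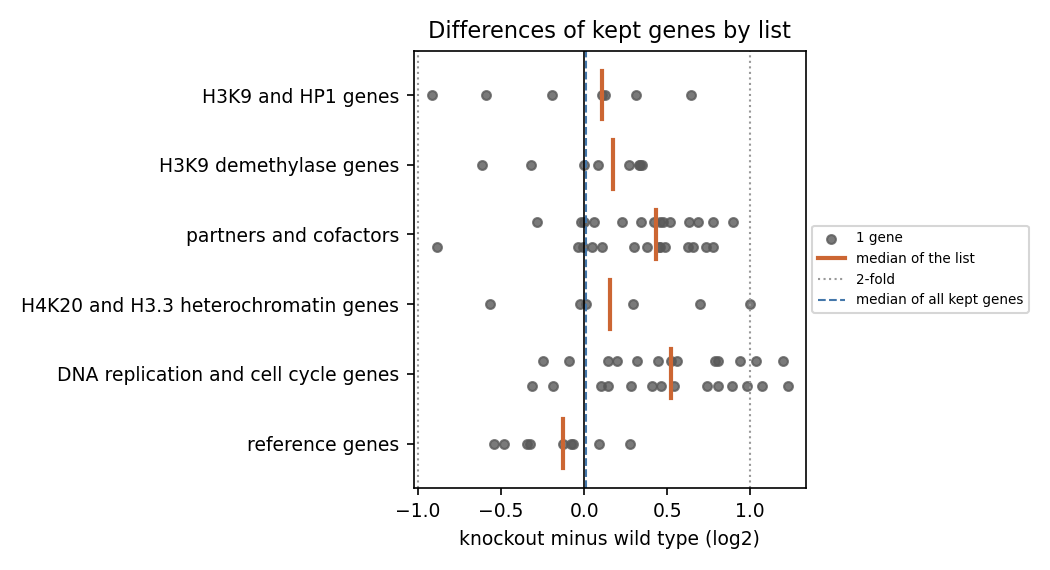
Knockout minus wild type (log2, horizontal axis) of each kept gene in 6 lists, with list medians as orange bars and 2-fold as dotted lines. The H3K9 and HP1 genes spread from -0.92 to 0.64 around a median of 0.11, and the medians of the partner list (0.44) and the replication and cell cycle list (0.52) lie to the right of the median of all kept genes.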

How the data were processed

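RNA of 1 Lsh+/+ and 1 Lsh-/- MEF line was measured on 1 array each. The authors deposited log2 expression values made with RMA, per the submitters' processing notes; RMA corrects background, quantile-normalizes the arrays and summarises probes. Its version, how probes were grouped, and the build are not given in the sources used here. The log2 scale was read from the range, 0.89 to 13.1. Of its 23950 rows, 64 were control probe sets and 23886 had RefSeq accessions. These were matched without version to the gene table of GRCm38.p6, where 21230 rows found exactly 1 gene and 2656 did not. Where a gene had several rows, that with the highest mean was used. RMA compresses differences of dim probes and forces the probe values of both arrays to the same distribution before they are summarised. The summarised rows need not share it exactly, but their differences are relative to other genes.

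A gene was called where it differed by 2-fold or more; with 1 array a genotype no p-value was computed, and the number of arrays limits the precision. All 10 members were named, along with every kept gene of the other lists past 2-fold. The partner, demethylase and H4K20 and H3.3 lists had none, and there the gene farthest from 0 in each direction was named. Kept genes of the reference, blood cell and neural lists were not named. The further genes of the lists with values were named after their values had been seen. Members and lists were chosen with earlier results of these data known. Promoter sequences came from RefSeq (GRCm38.p6); the motifs were chosen after the sequences had been seen. Counting was tested on simulated data. Alternatives were row means, no dimness limit or one at the upper quartile, quantile normalization, loess (span 0.3), scaling to hybridisation controls or reference genes, a pseudocount of 32, and thresholds of 1.5-fold and 3-fold. Python 3.11.15, numpy 2.4.6, pandas 2.3.3, statsmodels 0.14.6 and matplotlib 3.10.9 were used.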

Additional observations from a re-analysis of the deposited data

How the results depend on the processing

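No paired analysis was possible because there was a single array per genotype, and leaving out a replicate was equally impossible. With no spread between replicates, a median was taken as moved where it shifted by over 0.1 or changed sign. Subtracting chromosome medians and counting identical values once were chosen after seeing the data. Among H3K9 and HP1 genes the counts of 0 higher and 0 lower became 1 and 2 at 1.5-fold, and 0 and 2 with the scaling to hybridisation controls. The median of these genes, 0.11 as reported, was -0.19 with the limit at the upper quartile, which kept 5 of them, -0.38 with the scaling to hybridisation controls and 0.23 with the scaling to reference genes. Under the scaling to hybridisation controls the medians were -0.32 for demethylases, -0.058 for partners, -0.34 for H4K20 and H3.3 genes, 0.030 for replication and cell cycle genes and -0.62 for reference genes. Under the scaling to reference genes they were 0.30, 0.56, 0.28 and 0.65, the last left out. The pseudocount of 32 gave 0.24 for partners and 0.38 for replication and cell cycle genes. The demethylase median was 0.042 with no limit and 0.024 with chromosome medians subtracted. The H4K20 and H3.3 median was 0.28 with no limit and 0.012 with row means, where Kmt5b was averaged with dim rows. Of all kept genes, 426 were at least 2-fold higher and 556 lower. These counts became 225 and 314 with the upper quartile, 150 and 1533 with the scaling to hybridisation controls, 101 and 193 with the pseudocount, 1254 and 1267 at 1.5-fold, and 131 and 240 at 3-fold. A stricter limit or threshold counts fewer genes by its construction. The share of higher genes among those called, 43.4% as reported, was 8.91% with the scaling to hybridisation controls, 55.6% with that to reference genes and 34.4% with the pseudocount. The other H3K9 methyltransferase genes had no kept member and so no median. Signal near the dimness limit restricts what Setdb1, Cbx1 and Suv39h2 can show.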
